A study of Homo sapiens with 8 samples.

Results

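The serpin B cluster of chromosome 18q was examined as a window of 580 kb, chr18:61100000-61680000 on build hg19, in ATAC-seq peak lists of 2 oral squamous carcinoma lines. ATAC-seq marks open chromatin, where the Tn5 transposase can insert sequencing adapters, and a peak is a stretch with more insertions than the background of its library. Peaks of all lists that shared at least 1 bp were merged into regions, and 23 of 80588 regions fell in the window. The window holds, in order, SERPINB5, SERPINB12, SERPINB13, SERPINB4, SERPINB3, SERPINB11, SERPINB7, SERPINB2, SERPINB10 and SERPINB8. The RefSeq gene table at hand, of build GRCh38.p14, gave the 10 genes in the same order. It is of another build, so no region was placed on a single gene, and regions are given by position and by their number, 1 to 23, from the SERPINB5 end to the SERPINB8 end.

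The groups were KOSC-2 cells 24 hours after 8 Gy, KOSC-2 cells at 0 Gy, HSC-3 cells 24 hours after 8 Gy and HSC-3 cells at 0 Gy, with 2 libraries each. By the labels KOSC-2 is a radiosensitive line and HSC-3 a radioresistant one, and the study set out to compare them across the genome with and without irradiation. Each class is represented by a single line, so line and radiosensitivity cannot be told apart. Whether paired libraries of 1 group stem from different cultures is not stated, and the p-values below therefore reflect library-to-library spread that may be technical. Gene expression is not analysed here, so the squamous identity of the cells was not checked against marker levels.

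Serpins are proteins that trap proteases, or in some members serve other roles, and those of clade B lack a classical signal peptide and act mostly inside cells. The cluster on 18q is known for genes active in squamous epithelium. SERPINB5 (maspin) does not act as a protease inhibitor and is known as a tumour suppressor of epithelial cells. SERPINB12 inhibits trypsin-like proteases, and SERPINB13 (headpin) is a keratinocyte inhibitor of cathepsin L. SERPINB3 and SERPINB4 are the squamous cell carcinoma antigens, of which SERPINB3 inhibits cysteine cathepsins and SERPINB4 inhibits cathepsin G and mast cell chymase. SERPINB7 (megsin) is lost in a recessive palmoplantar keratosis, SERPINB2 inhibits the plasminogen activator urokinase, SERPINB8 inhibits furin, SERPINB10 (bomapin) is known from bone marrow cells, and SERPINB11 (epipin) is an epithelial member.

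Because no hg19 sequence was used, the sequence of the regions themselves is not shown, and the promoters of the genes were read from RefSeq (build GRCh38.p14, whose positions are not those of the peaks). The table had 11 promoter entries for 8 of the 10 genes, each of 300 bases from 250 before to 50 after a start. SERPINB10 and SERPINB11 had no entry. Member promoters had a median GC content of 42.3% (range 29.7 to 59.7%), against 58.7% over all 35116 entries, and SERPINB5 was the highest with 59.7% and 16 CpG pairs. The letters TGANTCA, the core bound by AP-1 factors and the same on both strands, occurred in 7 of 11 member entries, from 6 genes, against 7.71% of all entries. TATAAA, searched on both strands, occurred in 5 of 11 against 11.5%, and GGGCGG, searched on both strands, in 1 of 11 (SERPINB5) against 45.0%. The set of all entries was not matched for GC content, on which the frequency of such letters depends. Matches of the 3 motifs cannot share bases, and a match is a description of letters, not of binding. SERPINB7 had 3 entries and SERPINB12 had 2, and entries of 1 gene are alternative starts and are not independent. In each of the 7 entries with TGANTCA, the match nearest to the start is shown in capitals, with 20 bases on either side.
SERPINB5, chr18:63476792-63476838, plus strand: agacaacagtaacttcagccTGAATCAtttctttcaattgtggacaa
SERPINB12, chr18:63542304-63542350, plus strand: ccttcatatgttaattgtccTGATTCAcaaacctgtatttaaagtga
SERPINB13, chr18:63587236-63587282, plus strand: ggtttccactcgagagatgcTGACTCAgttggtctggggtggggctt
SERPINB7 start 2, chr18:63775359-63775405, plus strand: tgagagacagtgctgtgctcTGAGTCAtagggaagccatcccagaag
SERPINB7 start 3, chr18:63777716-63777762, plus strand: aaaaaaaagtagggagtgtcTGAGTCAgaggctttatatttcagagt
SERPINB2, chr18:63887583-63887629, plus strand: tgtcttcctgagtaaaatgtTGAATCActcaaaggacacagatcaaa
SERPINB8, chr18:63970033-63970079, plus strand: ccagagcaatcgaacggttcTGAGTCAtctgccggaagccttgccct
The matches shown began 146 bases before the start in SERPINB5, 102 in SERPINB2, 87 in SERPINB13, 45 in start 1 of SERPINB12 and start 3 of SERPINB7, 39 in start 2 of SERPINB7 and 28 in SERPINB8. SERPINB3, SERPINB4, start 2 of SERPINB12 and start 1 of SERPINB7 had none.

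The SERPINB4 and SERPINB3 promoters are shown because they are near copies, which bears on how reads from these genes can be placed. They differed at 4 of 300 positions (98.7% identical). No other pair of promoters from different member genes was more than 32.0% identical, compared position by position without gaps. Counted from 1 at the 5′ end, with the SERPINB4 base first, the differences were A126G, A201G, T228C and C260T, and the longest identical stretch was 125 bases. The first 250 bases of each are given, with the differing bases in capitals.
SERPINB4, chr18:63644257-63644506, minus strand: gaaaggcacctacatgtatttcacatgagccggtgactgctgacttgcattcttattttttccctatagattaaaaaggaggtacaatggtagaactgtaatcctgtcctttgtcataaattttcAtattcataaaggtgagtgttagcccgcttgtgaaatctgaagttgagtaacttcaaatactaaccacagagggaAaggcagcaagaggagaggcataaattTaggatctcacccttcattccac
SERPINB3, chr18:63661894-63662143, minus strand: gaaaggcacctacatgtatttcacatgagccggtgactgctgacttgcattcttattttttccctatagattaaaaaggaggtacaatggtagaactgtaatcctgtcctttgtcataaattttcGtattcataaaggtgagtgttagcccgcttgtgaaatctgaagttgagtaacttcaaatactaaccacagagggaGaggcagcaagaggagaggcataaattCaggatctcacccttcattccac
Reads that fall wholly within an identical stretch match both genes equally well. How the authors treated such reads is not given in the sources used here, so a missing peak at either gene would not show closed chromatin.

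The lists held 42457 to 51764 peaks in irradiated KOSC-2, 38321 to 45526 in unirradiated KOSC-2, 22592 to 43176 in irradiated HSC-3 and 23553 to 42015 in unirradiated HSC-3. The files hold no read totals, and the library-wide background, recovered from the authors' fold and p-value and scaled by an assumed 300 bp per read, ran from 20.2 to 64.8 reads per 10 kb. The smallest pileup called in a list was 5 to 9 reads, so open sites with fewer reads were not detectable. The HSC-3 8 Gy replicate 1, the KOSC-2 0 Gy replicate 1 and the HSC-3 0 Gy replicate 2 stood apart with the lowest enrichment: their median pileup at regions called in all 8 libraries was 21.9, 25.7 and 34.7 times the library-wide background, against 49.6 to 67.3 times in the other 5.

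The window held more peaks in KOSC-2 than in HSC-3. It contained 21 and 14 peaks in the 8 Gy libraries and 17 and 17 in the 0 Gy libraries of KOSC-2 (replicates 1 and 2 of each dose), against 3 and 12 in the 8 Gy and 11 and 7 in the 0 Gy libraries of HSC-3. Every KOSC-2 library exceeded every HSC-3 library, with means of 17.2 ± 2.87 and 8.25 ± 4.11 peaks (SD, n = 4 each; exact two-sided permutation test, p = 0.0286, the smallest that 4 against 4 allows, adjusted 0.0357 over the 5 measures compared this way). The covered length was 9264 ± 1330 bp in KOSC-2 and 4139 ± 1828 bp in HSC-3 (SD, n = 4 each), again without overlap.

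List length differs between the libraries, so the peaks were also expressed per 10000 peaks of the list. KOSC-2 libraries then had 4.06 and 3.30 at 8 Gy and 4.45 and 3.74 at 0 Gy, and HSC-3 libraries had 1.33 and 2.78 at 8 Gy and 2.62 and 2.98 at 0 Gy. The lines still did not overlap, but the gap between the lowest KOSC-2 and the highest HSC-3 library was small, and the value of 1.33 came from the HSC-3 library of lowest enrichment. Fitted over all 3835 windows of the same length with a mean of at least 2 peaks, on the scale of log2 of peaks plus 1 per 10000, the window was 0.61 ± 0.19 higher in KOSC-2 (SE, 8 libraries; limma, adjusted p = 0.0245 over all windows; 95% interval 0.22 to 0.99). Windows higher in KOSC-2 at this threshold made up 8.84% of all windows, and windows lower in KOSC-2 12.2%, so the call is one of many between these lines.

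The call depended on single libraries. With 1 library left out the difference ranged from 0.42 to 0.80, and the limma adjusted p passed 0.05 without the KOSC-2 0 Gy replicate 1 (0.54, adjusted p = 0.0840), the KOSC-2 8 Gy replicate 1 (0.54, 0.125), the KOSC-2 8 Gy replicate 2 (0.67, 0.0599), the HSC-3 0 Gy replicate 1 (0.54, 0.0579) and the HSC-3 8 Gy replicate 1 (0.42, 0.102). With all lists cut to the 22504 strongest peaks it was 1.15 (limma adjusted p = 0.0259), and without the 3 libraries of lowest enrichment 0.42 (adjusted p = 0.0447).

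**Figure D1:**
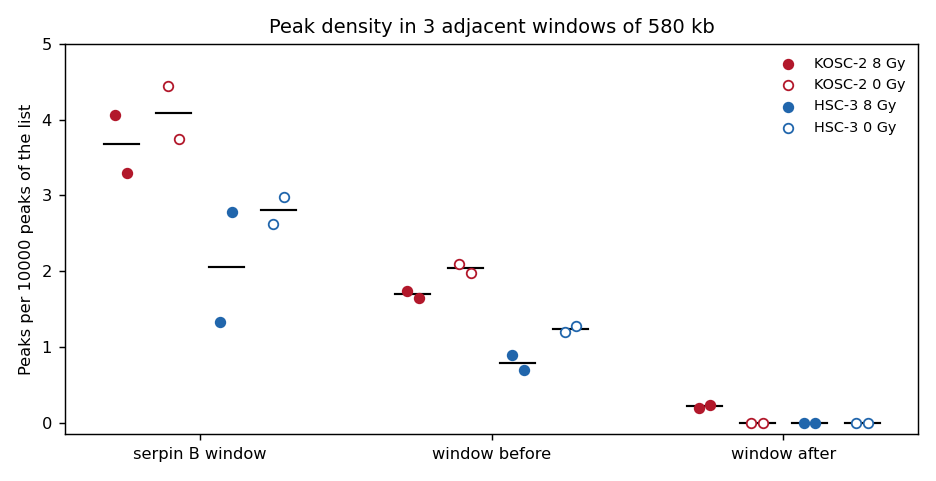
Peaks per 10000 peaks of the list (vertical axis) in the serpin B window and in the windows of 580 kb directly before and after it, for each library (points, filled for 8 Gy, open for 0 Gy) with the mean of each group of 2 (black lines). In the serpin B window the KOSC-2 libraries lie between 3.30 and 4.45 and the HSC-3 libraries between 1.33 and 2.98.

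The rest of chromosome 18 differed in the same direction. Outside the window it took 1.78% ± 0.115 of the peaks in KOSC-2, against 1.41% ± 0.120 in the HSC-3 lists (SD, 4 libraries per line; p = 0.0286 by exact permutation). Of the 85 tested windows of chromosome 18, 23.5% were higher and 4.71% lower in KOSC-2 by the same limma call. Their median log2 difference was 0.20, against -0.10 over all windows, and 70.6% of them lay below the serpin B window. As a share of the peaks of chromosome 18, the window held 2.15% ± 0.371 in KOSC-2 and 1.68% ± 0.489 in HSC-3 (SD, n = 4 each), and these values overlapped (exact permutation p = 0.229). Relative to its own chromosome, the window was not shown to differ between the lines.

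**Figure D2:**
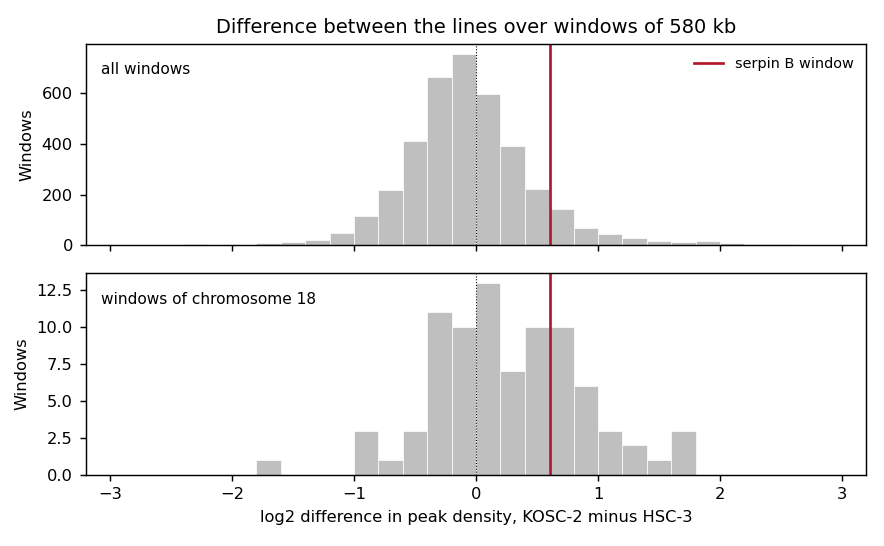
Number of windows of 580 kb (vertical axes) by log2 difference in peak density, KOSC-2 minus HSC-3 (horizontal axis), over all 3835 windows (top) and the 85 windows of chromosome 18 (bottom). The red line marks the serpin B window at 0.61, to the right of the medians of -0.10 and 0.20.

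The window stood between a sparser and an almost empty neighbour. The window directly before it, chr18:60520000-61100000, held 9, 7, 8 and 9 peaks in KOSC-2 (8 Gy replicates 1 and 2, then 0 Gy) and 2, 3, 5 and 3 in HSC-3, and was higher in KOSC-2 by 0.66 ± 0.23 (log2, SE; limma adjusted p = 0.0450). The window after it, chr18:61680000-62260000, held 1 peak in each irradiated KOSC-2 library and 0 in the other 6. Set against all 4662 windows with a peak, the serpin B window exceeded 75.6 to 87.6% of them in the KOSC-2 libraries and 36.5 to 68.0% in the HSC-3 libraries.

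Counted by region, KOSC-2 libraries made 68 of 92 possible calls over the 23 regions, and HSC-3 libraries 32. The matching share of calls over all regions is not given here. KOSC-2 lists were longer on average (44517 peaks against 32834), so more KOSC-2 calls arise over the genome too. More KOSC-2 than HSC-3 libraries called 18 of 23 regions (78.3%, against 54.3% of all regions), 2 were called in more HSC-3 libraries (8.70%, against 22% of all regions) and 3 in equal numbers. Regions called in 1 library numbered 5 (21.7%, against 31.9% of all regions), and those called in all 8 numbered 2 (8.70%, against 15.9%). At least 4 libraries called 15 of the 23 (65.2%, against 45.2% of all regions).

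**Figure D3:**
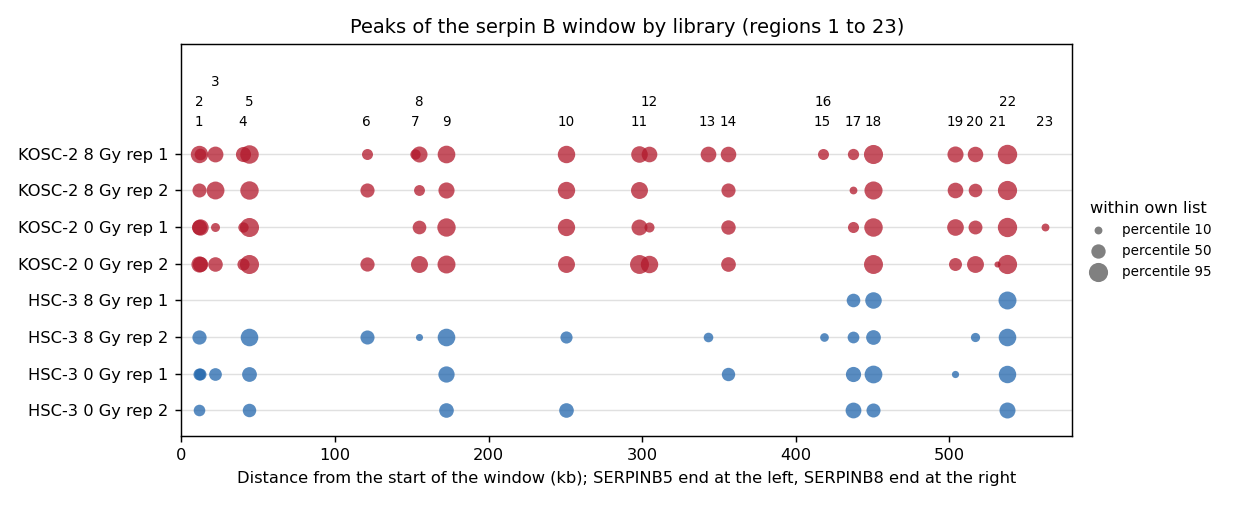
Peaks of the 23 regions along the window (horizontal axis, kb from its start) in each library (rows, KOSC-2 red, HSC-3 blue). Point area grows with the percentile of the peak within its own list, and numbers name the regions. KOSC-2 libraries hold 14 to 20 regions each and HSC-3 libraries 3 to 12.

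The 12 regions called in all 4 KOSC-2 libraries (52.2% of the 23, against 31.8% of all regions) were often missing from the HSC-3 lists. The HSC-3 8 Gy libraries called 2 and 8 of these 12 (replicates 1 and 2) and the 0 Gy libraries 8 and 6. Over all 25638 regions called in 4 of 4 KOSC-2 libraries, the same libraries called 61.4%, 87.4%, 88.0% and 63.4%, against 16.7%, 66.7%, 66.7% and 50.0% in the window. Exactly 1 HSC-3 library called 5 of the 12 (41.7%, against 7.59% of all such regions), and all 4 called 2 (16.7%, against 50.0%). The shares of the window were below those of all regions in each of the 4 libraries, with 12 regions behind them, and no test was run on them. Both sets were chosen by their calls in KOSC-2, and the larger set was matched neither for chromosome nor for peak strength.

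**Figure D4:**
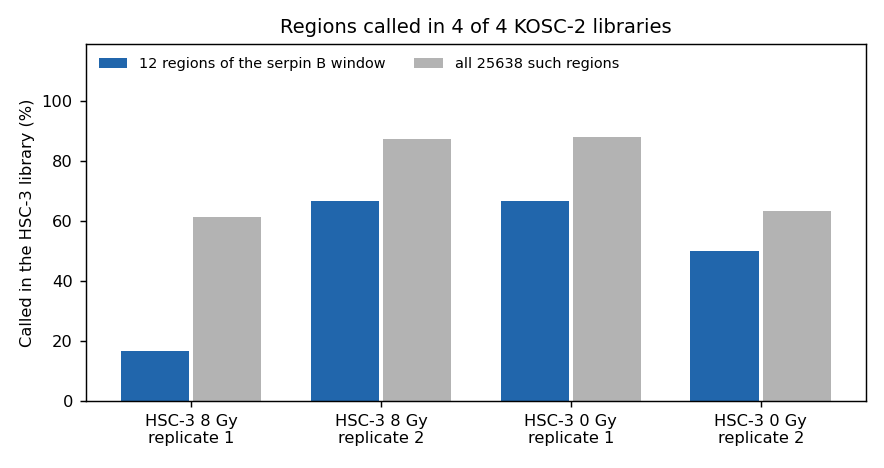
Share of regions called in 4 of 4 KOSC-2 libraries that were also called in each HSC-3 library (vertical axis, percent), for the 12 regions of the serpin B window (blue) and all 25638 such regions (grey). The blue bar is the lower one in each of the 4 libraries.

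The calls were uneven over 3 stretches of equal length, which was neither tested nor compared with other windows. The middle stretch held only 5 regions. In the stretch at the SERPINB5 end (regions 1 to 9) KOSC-2 libraries made 30 of 36 possible calls and HSC-3 libraries 13. In the middle stretch (regions 10 to 14) they made 16 and 4 of 20. In the stretch at the SERPINB8 end (regions 15 to 23) they made 22 and 15 of 36, and all 3 calls of the HSC-3 8 Gy replicate 1 lay there. Long stretches carried no region in any library, the longest being 77.8 kb between regions 9 and 10 and 75.6 kb between regions 5 and 6.

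At the SERPINB5 end, region 5 (chr18:61143750-61144642) had the highest mean percentile within the lists, 77.0 over the 7 libraries that called it. Its summit carried 65 and 58 reads in the 8 Gy and 64 and 80 in the 0 Gy libraries of KOSC-2, and 28 (8 Gy replicate 2), 20 and 13 (0 Gy replicates 1 and 2) in HSC-3. The authors' fold enrichment, which is relative to the local background at each peak, was 10.6, 11.3, 11.8 and 10.9 in KOSC-2 and 11.5, 8.30 and 7.14 in HSC-3. The HSC-3 8 Gy replicate 1 did not call it, and fold values of the lines overlapped. That local background was 2.31 to 6.82 times the library-wide one in KOSC-2 here and 1.59 to 2.47 times in HSC-3. Over the 100 calls of the window (the strongest peak of each region and library) it was 1 to 10.8 times. Pileups follow the depth and enrichment of a library, and folds also follow the local background, so both describe what each call rests on and do not compare height between the lines.

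Region 9 (chr18:61271948-61272609) had the same pattern of calls, 7 of 8 libraries without the HSC-3 8 Gy replicate 1. Its fold was 12.1 and 10.7 at 8 Gy and 12.8 and 13.0 at 0 Gy in KOSC-2, and 13.6 (8 Gy replicate 2), 10.7 and 8.10 (0 Gy) in HSC-3. Its mean percentile within the lists was 78.5 in KOSC-2 and 66.0 in HSC-3. Of the HSC-3 folds, 8.10 lay below every KOSC-2 value.

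The other recurrent regions at this end were weaker. Region 1 (chr18:61110983-61111548) was called in 4 KOSC-2 and 3 HSC-3 libraries with a fold of 6.33 to 10.7 and 6.19 to 7.86. Region 2 (chr18:61111764-61112185), 215 bp further on, was called in 3 and 1 libraries, and region 3 (chr18:61121669-61122415) in 4 and 1. Region 6 (chr18:61220288-61220788) was called in 3 and 1, and region 8 (chr18:61254174-61254635) in 4 and 1, the HSC-3 call being the weak one at percentile 6.67 of its list. The single HSC-3 calls of regions 2 and 3 came from the 0 Gy replicate 1 and those of regions 6 and 8 from the 8 Gy replicate 2, the 2 long lists of this line.

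In the middle stretch, region 11 (chr18:61397709-61398532) was alone in the window in having a call from every KOSC-2 library and from none of HSC-3. Its fold was 10.3 and 11.8 in the 8 Gy and 8.63 and 14.7 in the 0 Gy libraries of KOSC-2, on 32, 32, 26 and 59 reads at the summit. All 4 values lay well above the lowest pileups called, and its mean percentile was 74.5. Regions of this class made up 2.07% of all regions and 1 of 23 here, near that background, and the reverse class made up 0.3% of all regions and 0 of 23 here. A single region cannot pass a test adjusted over all regions with 4 against 4 libraries.

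Region 12 (chr18:61404037-61404585), 5.50 kb beyond it, was called in 3 KOSC-2 libraries and in no HSC-3 library, as was region 4 (chr18:61139657-61140074) at the SERPINB5 end. With region 11 they gave 3 of 23 regions called in at least 3 KOSC-2 and 0 HSC-3 libraries, where 6.22% of all regions met that rule. Region 10 (chr18:61350361-61350846) had the highest fold of the window, 14.0 and 15.03 at 8 Gy and 10.9 and 11.97 at 0 Gy in KOSC-2, and 7.40 (8 Gy replicate 2) and 8.10 (0 Gy replicate 2) in HSC-3. Its fold values did not overlap between the lines, and 2 HSC-3 libraries did not call it. Region 14 (chr18:61455692-61456259) was called in all 4 KOSC-2 libraries and in the HSC-3 0 Gy replicate 1, with a fold of 7.47 to 9.84 and 8.29.

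The SERPINB8 end held the 3 regions called in all 4 HSC-3 libraries, numbers 17, 18 and 22 (13.0% of the 23, against 18.1% of all regions). Region 17 (chr18:61536616-61537454) was called in 3 KOSC-2 and 4 HSC-3 libraries. Its fold was 6.42 and 6.08 at 8 Gy and 5.77 at 0 Gy (replicate 1) in KOSC-2, and 7.02 and 6.83 at 8 Gy and 9.78 and 8.29 at 0 Gy in HSC-3. It was the only region of the window called in both lines in which every HSC-3 fold exceeded every KOSC-2 fold, and the pattern was noticed after the values were seen. Every KOSC-2 fold exceeded every HSC-3 fold in regions 8, 10, 13, 19, 20 and 22, of which 8, 13, 19 and 20 had 1 HSC-3 call. Region 13 also had only 1 KOSC-2 call, and region 10 had 2 HSC-3 calls, so separation is easily met there. How often folds separate the lines over all regions was not counted. Folds also follow the local background, so these patterns do not compare height between the lines. Region 18 (chr18:61549755-61550530), called in all 8 libraries, had a fold of 12.3 and 10.95 at 8 Gy and 9.89 and 11.7 at 0 Gy in KOSC-2, and 8.30 and 7.38 at 8 Gy and 10.6 and 6.57 at 0 Gy in HSC-3. The values overlapped through the HSC-3 0 Gy replicate 1.

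Further on, region 19 (chr18:61603341-61604281) was called in 4 KOSC-2 libraries and the HSC-3 0 Gy replicate 1, and region 20 (chr18:61616262-61616878) in 4 KOSC-2 libraries and the HSC-3 8 Gy replicate 2. Both HSC-3 calls were weak, at percentiles 7.16 and 16.4 of their lists, where KOSC-2 means were 58.8 and 55.7. The 8 regions called in fewer than 4 libraries had a fold of 4.40 to 12.5. Region 16 (chr18:61517918-61518270), called in the HSC-3 8 Gy replicate 2, was the only one seen in HSC-3 alone.

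Region 22 (chr18:61637056-61638467) had the highest mean percentile of the window, 86.1, and at 1412 bp was its widest region, although several regions, 9, 10, 11 and 18 among them, reached higher folds. Its fold was 10.4 and 10.5 in the 8 Gy and 10.2 and 9.90 in the 0 Gy libraries of KOSC-2, with percentiles of 95.4 to 97.9, and 8.31 and 8.98 at 8 Gy and 8.08 and 7.72 at 0 Gy in HSC-3, with percentiles of 64.0 to 82.5. Every KOSC-2 value was above every HSC-3 value, with the local background at 3.96 to 10.8 times the library-wide one in KOSC-2 and 2.42 to 5.34 times in HSC-3. The position of the summit also differed. It lay 793 and 778 bp into the region in the 8 Gy and 794 and 767 bp in the 0 Gy libraries of KOSC-2, and 320 and 727 bp in the 8 Gy and 244 and 242 bp in the 0 Gy libraries of HSC-3. The HSC-3 0 Gy replicate 1 split the region into 2 peaks, and only the summit of the stronger peak was used. The position of the other summit is not given here. By the summits used, the lines did not overlap, and their median summits were 504 bp apart. Their mean summits were 399.75 bp apart (exact two-sided permutation test of the means, p = 0.0286, adjusted 0.767 over the 12827 regions called in all 8 libraries).

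Summits of the lines that did not overlap occurred in 3.73% of those 12827 regions, and in 0.53% with medians at least 200 bp apart. In 99.3% of the 12827 regions the medians were closer than in region 22. These shares were not matched for width, and a narrow region cannot hold distant summits. Region 22 was 1412 bp wide, against a median of 549 bp in the window. The pattern was noticed in the data before it was counted, and the HSC-3 8 Gy replicate 2 had its summit near that of KOSC-2. In region 18, summits lay within 39 bp of each other in KOSC-2 and within 143 bp in HSC-3, with medians 6 bp apart. Over the 15 regions called in at least 4 libraries, the summit spread was 41 to 143 bp apart from region 22, where it was 552 bp.

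**Figure D5:**
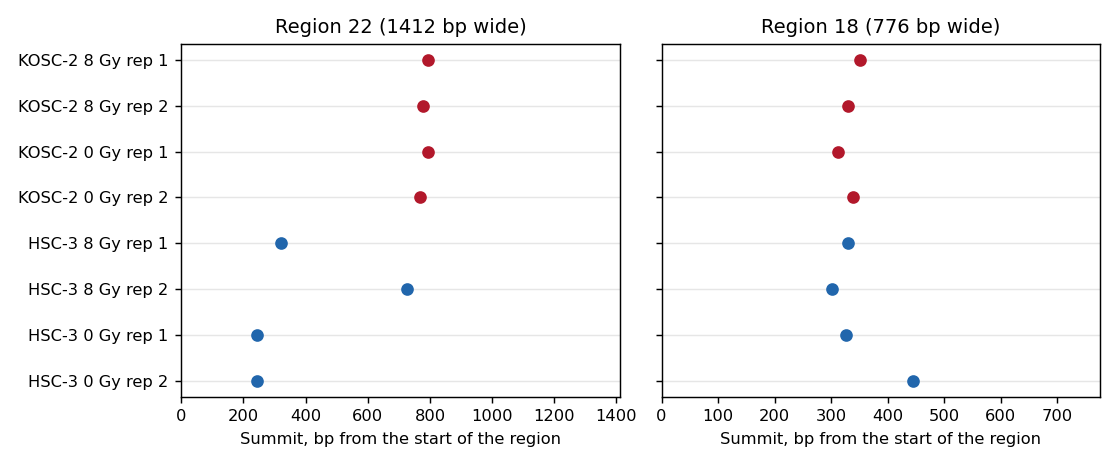
Position of the summit (horizontal axis, bp from the start of the region) in each library (rows, KOSC-2 red, HSC-3 blue) in the 2 regions called in all 8 libraries. Where a library had 2 peaks in a region, the summit of the stronger is shown. In region 22 the KOSC-2 summits lie between 767 and 794 bp and 3 of 4 HSC-3 summits between 242 and 320 bp, and in region 18 all but 1 lie between 301 and 351 bp.

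No difference with dose in the number of peaks in the cluster exceeded the spread between libraries, which does not show that there was none. In KOSC-2 the window held 3.68 ± 0.538 peaks per 10000 at 8 Gy and 4.09 ± 0.5004 at 0 Gy (SD, n = 2 each), a log2 difference of -0.15 ± 0.26 (SE; limma adjusted p = 0.998; 95% interval -0.70 to 0.39). In HSC-3 it held 2.06 ± 1.03 at 8 Gy and 2.80 ± 0.252 at 0 Gy (SD, n = 2 each), a log2 difference of -0.43 ± 0.26 (SE; limma adjusted p = 0.993; 95% interval -0.97 to 0.11). The dose effects of the lines differed by 0.28 ± 0.37 (KOSC-2 minus HSC-3, log2, SE; limma adjusted p = 0.999). Both intervals include a fall as large as the difference between the lines, and the HSC-3 difference depended on which 8 Gy library was kept, being -0.05 without replicate 1 and -0.81 without replicate 2 (limma adjusted p = 0.232).

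Across all 3835 windows, limma called 0% changed with dose in either line, with 67 windows in KOSC-2 and 126 in HSC-3 at an unadjusted p under 0.05, and it called 0 for the difference between these effects (93 unadjusted). Without the HSC-3 8 Gy replicate 2, limma called 23 windows lower with dose in HSC-3 and 4 for the difference between these effects, and without the KOSC-2 0 Gy replicate 2 it called 1 window lower in KOSC-2. The serpin B window was called in none of these fits. With 2 against 2 libraries an exact permutation test cannot go below 0.333, and it gave 0.667 for the window in each line. No region of the window was called in both irradiated libraries of a line and neither unirradiated one, or the reverse. Over all regions, 3.51% met the first rule in KOSC-2 and 0.68% in HSC-3, and 0.87% and 0.957% the second. Over the 23 regions, the 4 libraries at 8 Gy made 49 calls and the 4 at 0 Gy made 51.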

How the data were processed

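The authors deposited 1 peak list per library in the narrowPeak layout, without a header. Per the submitters' processing notes, the tools were MACS2 2.2.6, Bowtie2 2.3.4.2, FastQC 0.11.7, deepTools and SAMtools 1.9, and the build hg19, without stated roles; the handling of duplicates, of reads that match several places and of the Tn5 offset is not given in the sources used here. For each peak the authors deposited a score, a fold enrichment (ratio), the −log10 p-value and the −log10 q-value of the summit, and the summit offset. The lowest −log10 q was 2.02.

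Only peaks of the autosomes and X entered. Percentiles rank the −log10 p within a list. Pileup and background were recovered from fold and p, within 0.0001 of the deposited value in 100% of peaks. Windows were compared with limma 3.58.1 (trend) in R 4.3.3 on log2 of (peaks + 1) per 10000 list peaks in a model of 4 groups, with Benjamini-Hochberg adjustment and a threshold of 0.05; this log scale understates changes of sparse windows. Single values used exact two-sided permutation tests. Regions named were those called in at least 4 libraries, in all libraries of 1 line alone, or changed by dose; regions 4, 12 and 16 and the summit comparison were added after their values were seen. The window, genes and lists were chosen with earlier results of these data known. Scripts ran in Python 3.11.15 with scipy 1.17.1, pandas 2.3.3, numpy 2.4.6 and, for figures, matplotlib 3.10.9, and the functions were tested on simulated data. Alternatives covered the pseudocount, filters, list length, covered bases, window width, a replicate block and libraries left out.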

Additional observations from a re-analysis of the deposited data

Results flagged for a closer look

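Of 42 sets of 4 library values of the window and its regions, 1 held a value far from the rest, where chance gives about 1 in 20. In region 22 the HSC-3 8 Gy replicate 2 had its summit 727 bp from the start of the region, against 242 to 320 bp in the other HSC-3 libraries.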

How the results depend on the processing

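The difference between the lines kept its direction and its call under all 10 alternatives that kept every library or dropped the 3 of lowest enrichment (limma adjusted or exact p of 0.0121 to 0.0447), and ranged from 0.42 to 0.80 (log2) with 1 library left out, where 5 of 8 fits lost the call; the cause was not tested. Correlations of deviations between same-numbered libraries were -0.26 to 0.11 over windows, which cannot settle whether these libraries were prepared together. With a replicate block the difference between the lines was 0.61 (limma adjusted p = 0.0350) and the serpin B window kept its call. Over all windows limma then called 298 higher and 389 lower in KOSC-2, against 339 and 469 without the block. With the HSC-3 numbers crossed, chosen after seeing the data, limma called 0 windows for dose in HSC-3, as without a block. The dose difference in HSC-3 turned to 0.076 without the 3 libraries of lowest enrichment, the interaction to -0.10 without them, and the interaction ranged from -0.10 (without the HSC-3 8 Gy replicate 1) to 0.66 with 1 library left out; none was called. KOSC-2-only regions numbered 2 with equal lists and with 50% of a region covered, 3 with calls in at least 3 of 4 libraries, and 1 to 4 with a library left out (3 without the KOSC-2 8 Gy replicate 2 or the HSC-3 8 Gy replicate 2, 4 without the HSC-3 0 Gy replicate 1). Regions called at 8 Gy alone numbered 0 to 3 in KOSC-2 (3 without the 8 Gy replicate 2, 1 without either 0 Gy library) and 0 to 5 in HSC-3 (5 without the 8 Gy replicate 1), and those called at 0 Gy alone 0 to 3 in KOSC-2 (3 without the 8 Gy replicate 1, 1 without either 0 Gy library, and 1 with equal lists) and 0 to 4 in HSC-3 (4 without the 0 Gy replicate 2, 3 without the 8 Gy replicate 2). A rule with fewer libraries is easier to meet, and in these fits a lone library is assumed to vary like the others. The share of all regions that met each altered rule is not given here, so these counts cannot be read against a background. The distance between mean summits in region 22, 399.75 bp with all libraries, ranged from 353 to 514 bp with 1 library left out. Its exact permutation p was 0.0286 without any 1 HSC-3 library and 0.0571 without any 1 KOSC-2 library. Region 22 was picked for summits that did not overlap, which holds these unadjusted p-values near the smallest possible. They therefore add no support. Peaks under 5 to 9 reads were beyond the depth of these lists.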
